A study of Mus musculus with 9 samples.

Results

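The genes described here are 9 genes of the mitochondrial and death receptor routes to apoptosis, chosen by name: Trp53, Bbc3, Pmaip1, Bcl2l11, Bax, Bak1, Bcl2, Bcl2l1 and Fas. They are 9 of the 32035 genes to which transcripts of the files were assigned. No caspase is among them, and caspases are described with the other genes of the pathway. Their RNA was measured by RNAseq in whole testes of C57Bl6/N mice at 15 weeks of age, from lines backcrossed over 10 generations. Kpna6 encodes importin α7, an adaptor that carries proteins into the nucleus. The groups were 3 wildtype (WT) libraries, 3 Kpna6 ΔIBB/ΔIBB libraries and 3 Kpna6−/− libraries. The ΔIBB allele lacks exon 2 and gives a truncated protein without the domain that binds importin β. The Kpna6−/− allele carries a gene trap in intron 1, but a start downstream of the trap, used in germ cells of the testis and not in Sertoli cells, still gives full-length protein there. Both lines carry their allele in every cell, and the labels do not say whether the numbered samples of a group came from separate animals, so the p-values measure only the spread between these samples.

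BCL2 and BCL-XL (Bcl2l1) are pro-survival proteins, and BH3-only proteins differ in which pro-survival proteins they bind. In the mitochondrial route, BH3-only proteins such as PUMA (Bbc3), NOXA (Pmaip1) and BIM (Bcl2l11) bind and block pro-survival proteins. The effectors BAX and BAK (Bak1) then open the outer mitochondrial membrane, cytochrome c leaves, and caspases are activated. The transcription factor p53 (Trp53) can raise transcription of Bax, Bbc3, Pmaip1 and Fas, the last of which encodes a death receptor on the cell surface. In testis, apoptosis removes surplus and damaged germ cells, and BAX is needed for the early wave of germ cell death after birth. Much of this machinery is controlled at the level of protein, which these data do not measure.

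4 of the 9 genes were higher in Kpna6 ΔIBB/ΔIBB than in WT testes, namely Bbc3, Bax, Trp53 and Bak1, by 2.34-fold, 1.61-fold, 1.46-fold and 1.34-fold, where 17.7% of all genes tested were higher and 18.9% were lower. Of these, only Bbc3 passed the test in Kpna6−/− testes, and that call was lost when any of several single libraries was left out. Bcl2l11, summed over its transcripts, was 14.1% lower in Kpna6 ΔIBB/ΔIBB testes, a call also lost when any of several single libraries was left out. In a fit added after the data were seen, its noncoding transcripts together were lower and its coding transcripts together did not pass. Bcl2l1, Bcl2, Pmaip1 and Fas did not pass the test in any comparison.

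Each library held between 24859751 and 31484692 estimated counts on genes. Kpna6 itself was read at 201, 325 and 334 CPM (counts relative to the library total, scaled between libraries by the TMM method) in WT, with the first library well below the other two. It was at 81.2, 85.3 and 81.8 CPM in Kpna6 ΔIBB/ΔIBB and at 247, 249 and 262 CPM in Kpna6−/− testes. Relative to WT, Kpna6 was lower in the ΔIBB line (log2 fold change −1.79, SE 0.153, edgeR quasi-likelihood test, adjusted p = 1.94e-05) and did not pass the test in the gene trap line (−0.18, SE 0.136, adjusted p = 0.586). The third Kpna6 ΔIBB/ΔIBB library held 67.7 CPM of Crisp1, a gene of the epididymis, against 0.191 and 1.67 CPM in the others of its group. The tests were repeated without each library in turn, and so without this library too. Leaving it out changed no call of Bbc3, Bax, Trp53 or Bak1 against WT, and its effect on Bcl2, Bcl2l11 and Bak1 is given with those genes.

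The sequences shown here are promoter windows of Bax and Trp53 and an exon of Bcl2l11. Any link between the promoter sequences and the differences in RNA was not tested. RefSeq promoter windows (GRCm38.p6), from 250 bases before to 50 bases after a gene's start, were found for 8 of the 9 genes, in 13 windows. Pmaip1 had no entry. The windows were searched for the half-site consensus of p53, a palindrome of 10 bases that reads the same on both strands. Exact matches stood in the window of Bax, 201 bases before the start, and in that of Trp53, 75 bases before it. No window of the other 6 genes held these letters. Among all 32851 windows, 8.36% held at least 1 match. A match is a description of the sequence and not a site at which p53 was measured. In the windows below, the matches AGGCAAGCTT and GGACTTGCCC are in capitals. The Bax window is on the minus strand at chr7:45466849-45467148 and the Trp53 window on the plus strand at chr11:69580109-69580408.

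Bax: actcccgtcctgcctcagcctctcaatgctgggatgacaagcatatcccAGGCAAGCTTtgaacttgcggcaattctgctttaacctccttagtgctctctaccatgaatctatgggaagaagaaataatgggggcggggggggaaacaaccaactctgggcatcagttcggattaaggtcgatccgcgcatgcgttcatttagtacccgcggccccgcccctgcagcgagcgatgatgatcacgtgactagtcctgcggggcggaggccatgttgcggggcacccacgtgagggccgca

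Trp53: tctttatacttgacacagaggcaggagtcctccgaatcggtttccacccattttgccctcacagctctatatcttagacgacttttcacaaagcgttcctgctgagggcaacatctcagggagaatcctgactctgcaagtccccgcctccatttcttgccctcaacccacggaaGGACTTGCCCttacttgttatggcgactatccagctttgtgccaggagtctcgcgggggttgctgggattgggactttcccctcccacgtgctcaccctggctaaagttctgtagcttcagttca

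Expressed per length, as TPM (transcript abundance relative to the total of the library) in WT testes, the genes covered a wide range of levels. Bcl2l11 stood first at 274 ± 14.4 TPM (SD, n = 3), of which nearly all was the noncoding transcript. Bcl2l1 followed at 80.0 ± 4.27 TPM, then Bax at 14.5 ± 1.01, Trp53 at 12.3 ± 0.376, Bak1 at 8.82 ± 0.391 and Bbc3 at 6.62 ± 0.875 TPM. Pmaip1 was at 1.63 ± 0.359, Fas at 0.566 ± 0.168 and Bcl2 at 0.439 ± 0.173 TPM. The WT libraries of neighbours in this order did not overlap, with the exception of Fas and Bcl2, whose levels differed by less than their spread. BCL-XL was thus the pro-survival member with the higher RNA level, and Bcl2 was read from only 26 to 66 counts in a library.

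**Figure D1:**
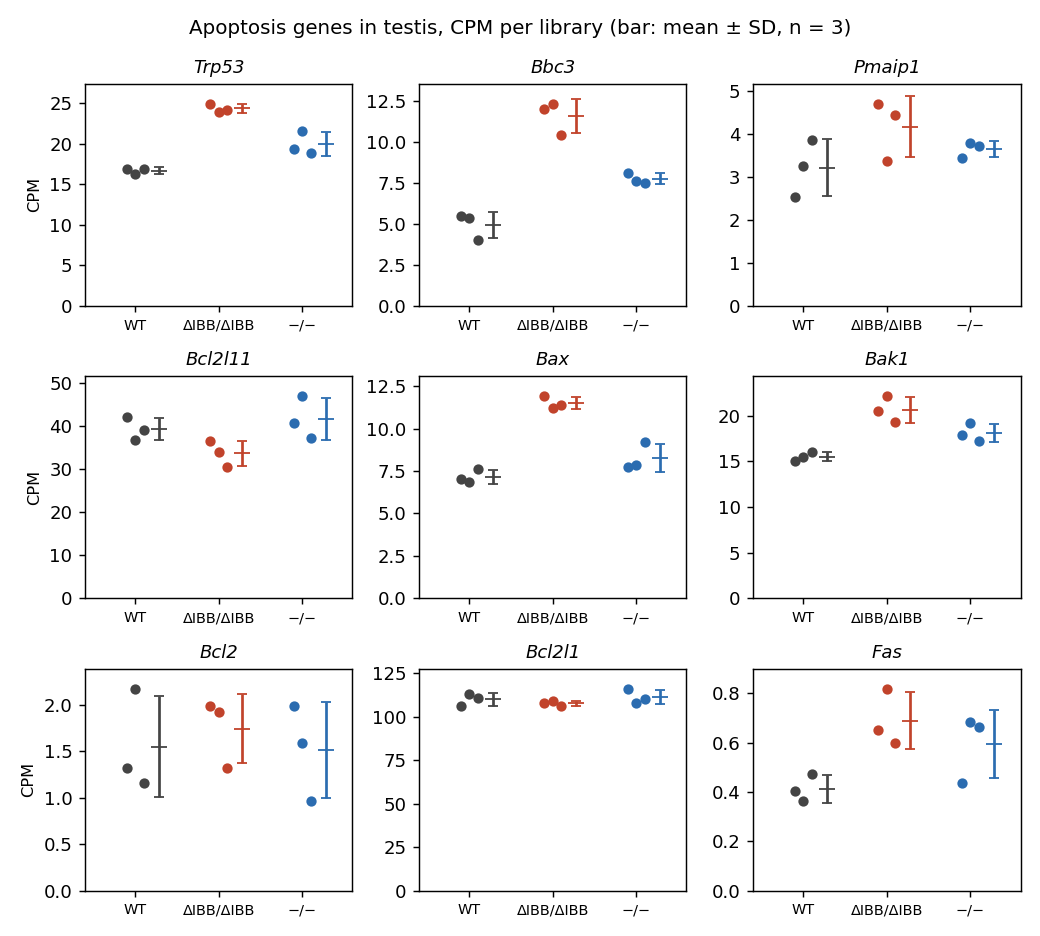
CPM (TMM-scaled, linear axis from 0) of each of the 9 genes in the 9 libraries, with 1 point per library and bars for the mean ± SD of 3. The 3 Kpna6 ΔIBB/ΔIBB points of Trp53, Bbc3, Bax and Bak1 lie above every WT point, and those of Bcl2l1 lie among them.

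The first comparison, Kpna6 ΔIBB/ΔIBB against WT testes, asks which of these genes differ where the truncated importin replaces the full-length protein. Of the 9 genes, 4 were higher and 1 was lower at an adjusted p below 0.05. Over the 18797 genes tested, 17.7% were higher and 18.9% were lower. All 9 genes passed the filter on low counts in every comparison. How many of all genes had groups without overlap was not counted in any comparison, so a lack of overlap only describes the gene named.

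Trp53 (chr11:69580359-69591873, plus strand) encodes p53. Its level was 16.9, 16.2 and 16.9 CPM in WT and 24.9, 23.9 and 24.2 CPM in Kpna6 ΔIBB/ΔIBB testes. Every Kpna6 ΔIBB/ΔIBB library was above every WT library, and both groups were narrow. The difference was 0.55 on the log2 scale (SE 0.0645, edgeR quasi-likelihood test, adjusted p = 1.04e-04). The gene total was steadier than its isoforms. The isoforms Trp53-201 and Trp53-203, which differ in length by 1 base (1772 and 1771 bases), traded places between libraries of 1 group. In WT they stood at 9.82 and 0.040 TPM, 2.62 and 5.92 TPM, and 9.62 and 0.425 TPM in the 3 libraries. Because of these swaps no isoform of Trp53 is compared between genotypes. The pseudogene Trp53-ps, which resembles Trp53 in sequence, was listed at 0 counts in all 9 libraries.

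Bbc3 (chr7:16308393-16318205, plus strand) encodes PUMA, a BH3-only protein that binds all pro-survival family members. It was read at 5.46, 5.34 and 4.04 CPM in WT and at 12.0, 12.3 and 10.4 CPM in Kpna6 ΔIBB/ΔIBB testes. The groups stood far apart, with the lowest Kpna6 ΔIBB/ΔIBB library above the highest WT library. This was the difference of greatest size among the 9 genes, 1.23 on the log2 scale (SE 0.130, 95% interval 0.94 to 1.51, edgeR, adjusted p = 5.59e-05). Both of its main isoforms by TPM, Bbc3-201 (1814 bases) and Bbc3-202 (485 bases), were higher. Bbc3-201 was at 3.33 ± 0.567 TPM in WT and 8.34 ± 0.875 TPM in Kpna6 ΔIBB/ΔIBB testes. Bbc3-202 was at 3.05 ± 0.908 and 9.53 ± 0.854 TPM (SD, n = 3). In WT it held 20.3, 11.3 and 14.7 estimated counts, against 141.7, 143.7 and 92.7 for Bbc3-201.

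Pmaip1 (chr18:66458533-66465565, plus strand) encodes NOXA, a BH3-only protein that binds a narrower set of partners. It was at 2.53, 3.26 and 3.86 CPM in WT and at 4.71, 3.37 and 4.44 CPM in Kpna6 ΔIBB/ΔIBB testes. The second Kpna6 ΔIBB/ΔIBB library lay inside the WT range. The difference of 0.38 (SE 0.187, 95% interval −0.03 to 0.79) did not pass the test (edgeR, adjusted p = 0.14).

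Bax and Bak1 encode the effectors that form pores in the mitochondrial membrane. Bax (chr7:45461697-45466898, minus strand) stood at 7.02, 6.85 and 7.61 CPM in WT and at 11.9, 11.2 and 11.4 CPM in Kpna6 ΔIBB/ΔIBB testes. The groups did not overlap, and the 3 libraries of each lay close together. Its difference was 0.69 on the log2 scale (SE 0.0930, edgeR, adjusted p = 2.52e-04). Exons of Bax share 192 bases on the same strand with Gm45808, a gene that was not analysed here. Bak1 (chr17:27019810-27029009, minus strand) was at 15.0, 15.5 and 16.0 CPM in WT and at 20.5, 22.1 and 19.3 CPM in Kpna6 ΔIBB/ΔIBB testes. These groups did not overlap either, and Bak1 was higher by 0.42 (SE 0.0769, edgeR, adjusted p = 0.00172). Bak1 shares 437 exonic bases, 18.2% of its exons, with Ggnbp1 on the opposite strand. Another gene identifier with the symbol Ggnbp1 shares 177 bases (7.35%), also on the opposite strand, and its values are not given here. Since the library kit does not mark strand, reads from those bases cannot be assigned to Bak1 or to Ggnbp1. Ggnbp1, a gene highly expressed in testis, was at 624 ± 10.1 CPM in WT and 643 ± 20.4 CPM in Kpna6 ΔIBB/ΔIBB testes, and did not pass the test (0.05, SE 0.0347, edgeR, adjusted p = 0.304).

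The pro-survival pair did not pass the test. Bcl2l1 (chr2:152780668-152831728, minus strand) was at 106, 113 and 111 CPM in WT and at 108, 109 and 106 CPM in Kpna6 ΔIBB/ΔIBB testes, and the groups overlapped. Its difference was −0.03 (SE 0.0432, 95% interval −0.13 to 0.06, edgeR, adjusted p = 0.602), which turned to 0.07 with scaling by library size only and to 0.10 on the log2(TPM + 1) scale, where it again missed the threshold. Bcl2 (chr1:106538178-106714274, minus strand) was at 1.32, 2.17 and 1.16 CPM in WT and at 1.99, 1.92 and 1.32 CPM in Kpna6 ΔIBB/ΔIBB testes. Here the spread within WT was wider than the distance between the groups. The difference of 0.16 (SE 0.274, 95% interval −0.44 to 0.77, edgeR, adjusted p = 0.679) left room for changes in either direction at this depth. Without Kpna6 ΔIBB/ΔIBB replicate 3 it was 0.33 (edgeR, adjusted p = 0.405).

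Fas (chr19:34290666-34327772, plus strand) encodes the receptor of FAS ligand. It was read from 11 to 13 counts in a WT library and from 17 to 26 counts in a Kpna6 ΔIBB/ΔIBB library. Its level was 0.405, 0.362 and 0.473 CPM in WT and 0.651, 0.818 and 0.598 CPM in Kpna6 ΔIBB/ΔIBB testes, without overlap. The difference of 0.74 had a wide interval (SE 0.312, 95% interval 0.05 to 1.43) and did not pass after adjustment over all genes (edgeR, adjusted p = 0.0861).

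Bcl2l11 (chr2:128126038-128162547, plus strand) encodes BIM. Summed over its transcripts it was at 42.0, 36.8 and 39.1 CPM in WT and at 36.5, 33.9 and 30.5 CPM in Kpna6 ΔIBB/ΔIBB testes, with the lowest WT library just above the highest Kpna6 ΔIBB/ΔIBB library. The sum was lower by 14.1% (log2 fold change −0.22, SE 0.0752, edgeR, adjusted p = 0.0408). This call stood close to the threshold and was lost without WT replicate 1 or 3 and without Kpna6 ΔIBB/ΔIBB replicate 2 or 3 (adjusted p from 0.0794 to 0.13). It was also lost with scaling by library size only (−0.12, adjusted p = 0.24) and in the joint fit of all 9 libraries (−0.22, adjusted p = 0.0557), whereas length-scaled TPM counts gave −0.41 (adjusted p = 0.00981). The sum was mostly 1 transcript. Bcl2l11-207, annotated as a processed transcript without a coding region and 391 bases long, took 95.2% to 97.1% of the TPM of the gene. It took 55.0% to 69.8% of its estimated counts, a smaller share, because a transcript of this length has an effective length of only 116 bases in the first WT library and its TPM is scaled up accordingly.

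Bcl2l11-207 has 2 exons on the plus strand of GRCm38, at chr2:128128131-128128403 and chr2:128128620-128128737. The first, of 273 bases, shares no base with an exon of any other annotated Bcl2l11 transcript, while all 118 bases of the second are shared. The reads that separate this transcript from those encoding BIM therefore come from the first exon or its junction. Reads over this exon were not counted by themselves, and its sequence is shown here (GENCODE M21).

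Bcl2l11-207 exon 1: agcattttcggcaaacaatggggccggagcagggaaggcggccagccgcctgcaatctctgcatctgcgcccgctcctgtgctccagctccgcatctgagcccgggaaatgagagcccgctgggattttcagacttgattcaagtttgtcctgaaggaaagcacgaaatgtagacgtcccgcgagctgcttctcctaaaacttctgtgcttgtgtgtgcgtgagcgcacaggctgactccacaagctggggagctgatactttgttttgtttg

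Bcl2l11-207 was at 278, 253 and 259 TPM in WT, at 237, 219 and 187 TPM in Kpna6 ΔIBB/ΔIBB and at 259, 324 and 255 TPM in Kpna6−/− testes. Each Kpna6 ΔIBB/ΔIBB library was below each library of the other groups. The 5 protein-coding transcripts together were at 6.60, 4.38 and 5.83 TPM in WT, 4.53, 4.92 and 5.21 TPM in Kpna6 ΔIBB/ΔIBB and 5.91, 5.75 and 3.83 TPM in Kpna6−/− testes, and all groups overlapped. A fit on protein-coding transcripts only, with the noncoding transcripts of Bcl2l11 as a feature of their own, was added after the data were seen. In it the noncoding transcripts were lower in Kpna6 ΔIBB/ΔIBB than in WT testes (log2 fold change −0.44, SE 0.0880, edgeR, adjusted p = 0.00277). The coding transcripts differed by 0.26 in the other direction (SE 0.111, edgeR, adjusted p = 0.0869) and did not pass. The direction of the coding transcripts depended on the unit, since their mean TPM was 5.61 ± 1.13 in WT and 4.88 ± 0.340 in Kpna6 ΔIBB/ΔIBB testes while their mean estimated counts were 281 ± 36.6 and 348 ± 34.5 (SD, n = 3). No change of the coding transcripts as a sum was thus shown. Within the sum, Bcl2l11-204 (672 bases) was at 3.08, 1.84 and 2.16 TPM in WT and 0, 0.667 and 0.776 TPM in Kpna6 ΔIBB/ΔIBB testes. These values rest on few estimated counts, 30.2, 18.6 and 19.3 in WT and 0, 6.4 and 7.4 in Kpna6 ΔIBB/ΔIBB testes. Bcl2l11-205 (5036 bases) went the other way, from 1.21, 0.864 and 0.878 TPM to 1.86, 2.04 and 1.52 TPM. The other coding isoforms overlapped between these groups. No isoform, Bcl2l11-207 included, was tested on its own.

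**Figure D2:**
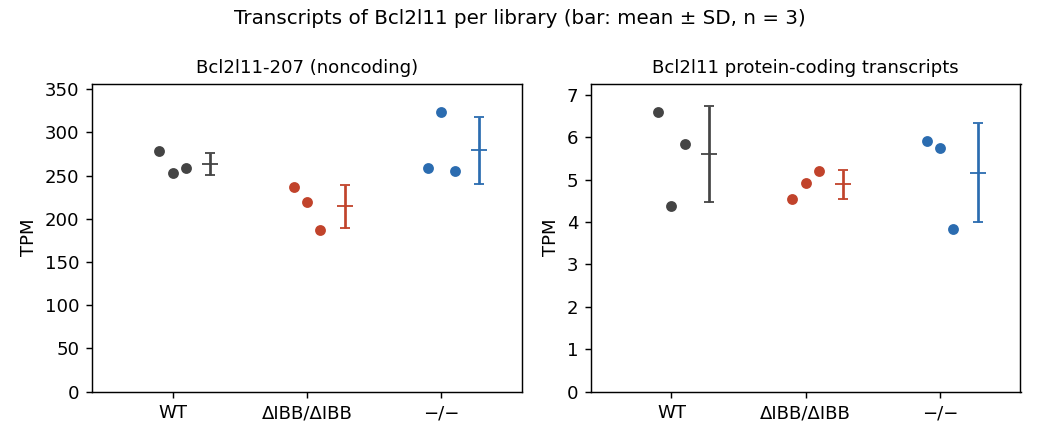
TPM of the noncoding transcript Bcl2l11-207 (left) and of the 5 protein-coding Bcl2l11 transcripts together (right) in the 9 libraries, on linear axes of different scale that start at 0, with the mean ± SD of 3. The 3 Kpna6 ΔIBB/ΔIBB points of Bcl2l11-207, from 187 to 237 TPM, lie below all others, and the summed coding transcripts overlap between groups.

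The second comparison, Kpna6−/− against WT testes, concerns the line that keeps full-length importin α7 in germ cells. It shares its WT libraries with the first. Of the 9 genes, 1 was higher and 0 were lower by edgeR, 3 had an unadjusted p below 0.05 and DESeq2 also called 1. Over the 18681 genes tested, 0.889% were higher and 0.712% were lower. The gene called was Bbc3, at 8.11, 7.60 and 7.50 CPM in Kpna6−/− testes, all above the 3 WT libraries and below the 3 Kpna6 ΔIBB/ΔIBB libraries. It was 1.56-fold higher than in WT (log2 fold change 0.64, SE 0.128, edgeR, adjusted p = 0.0299). The call held in 1 of 6 fits with a library left out, that without WT replicate 1. Without WT replicate 2 or 3, or without Kpna6−/− replicate 1, 2 or 3, the log2 fold change was between 0.52 and 0.70 with adjusted p from 0.0549 to 0.151 (edgeR).

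The other 8 genes did not pass. Trp53 was at 19.3, 21.6 and 18.9 CPM and Bak1 at 17.9, 19.2 and 17.2 CPM in Kpna6−/− testes, in both cases above every WT library. Trp53 differed from WT by 0.26 (SE 0.0745, edgeR, unadjusted p = 0.00426, adjusted p = 0.11) and Bak1 by 0.22 (SE 0.0733, edgeR, unadjusted p = 0.0104, adjusted p = 0.173). Bax was at 7.75, 7.85 and 9.20 CPM, also above every WT library, a difference of 0.21 (SE 0.106, 95% interval −0.02 to 0.44, edgeR, adjusted p = 0.395). The upper bounds for these 3 genes allow increases of up to 1.34-fold, 1.30-fold and 1.35-fold. Bcl2l1 (116, 108 and 110 CPM), Bcl2l11 (40.8, 46.9 and 37.3 CPM), Bcl2 (1.99, 1.59 and 0.961 CPM), Pmaip1 (3.44, 3.80 and 3.73 CPM) and Fas (0.435, 0.682 and 0.665 CPM) overlapped with WT, with adjusted p from 0.53 to 0.968 (edgeR).

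The third comparison sets the mutant lines against each other and tests directly whether their distances from WT differed. Relative to Kpna6−/− testes, 3 of the 9 genes were higher and 1 was lower in the Kpna6 ΔIBB/ΔIBB line. Over the 18752 genes tested, 13.5% were higher and 16.8% were lower. Bbc3 was 1.49-fold higher (log2 fold change 0.58, SE 0.0949, edgeR, adjusted p = 7.88e-04). Bax was 1.38-fold higher (0.47, SE 0.0940, edgeR, adjusted p = 0.00287). Trp53 was 1.21-fold higher (0.28, SE 0.0664, edgeR, adjusted p = 0.00775). In all 3 the calls were kept in each of the 15 alternative fits. The groups did not overlap in these 3 genes, nor in Bcl2l11 and Bak1, a property not counted over all genes. Bcl2l11 was lower (−0.32, SE 0.0853, edgeR, adjusted p = 0.0151), again through its noncoding transcripts (−0.52, SE 0.0982, edgeR, adjusted p = 0.00227, against 0.15 for the coding ones, adjusted p = 0.327). Its summed call was lost without Kpna6−/− replicate 2 (adjusted p = 0.0693), the library with 46.9 CPM, and with scaling by library size only (−0.22, adjusted p = 0.0747), and was −0.50 with length-scaled TPM counts. Bak1 differed by 0.19 (SE 0.0731, edgeR, adjusted p = 0.0769) and fell on the called side without Kpna6 ΔIBB/ΔIBB replicate 3 (0.24, adjusted p = 0.0313). The other 4 genes did not pass, with adjusted p from 0.348 to 0.663 (edgeR). Bcl2 among them was at 0.19, and at 0.36 without Kpna6 ΔIBB/ΔIBB replicate 3 (adjusted p = 0.37).

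**Figure D3:**
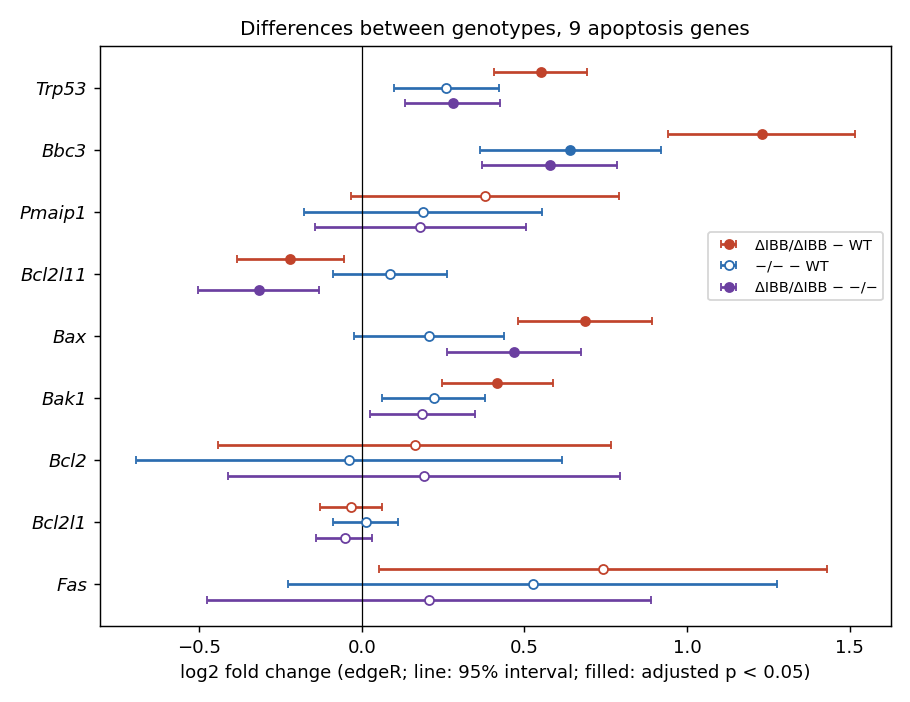
Log2 fold changes of the 9 genes in the 3 comparisons (edgeR, with 95% intervals as lines); filled points have an adjusted p below 0.05. Bbc3 lies at 1.23, 0.64 and 0.58, all filled, and the intervals of Bcl2 and Fas are the widest.

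The ratio of Bax to Bcl2 RNA is often used as a summary of the balance in this family. It was 36.6, 21.6 and 52.3 in WT, 51.6, 41.8 and 60.9 in Kpna6 ΔIBB/ΔIBB and 26.5, 31.6 and 75.2 in Kpna6−/− testes, from TPM. The groups overlapped, and the spread of up to 26.8 (SD, Kpna6−/−, n = 3) came with the low counts of Bcl2. Against Bcl2l1, which had 2808 to 3453 counts in a library, the ratio was steadier. Bax to Bcl2l1 was 0.186, 0.171 and 0.185 in WT, 0.314, 0.278 and 0.295 in Kpna6 ΔIBB/ΔIBB and 0.190, 0.204 and 0.232 in Kpna6−/− testes, and the Kpna6 ΔIBB/ΔIBB libraries lay above all others. This second ratio was chosen after the data were seen. With 3 libraries per group an exact permutation test cannot go below p = 0.1, and no test was made of either ratio.

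Genes with the most similar pattern over the 9 libraries were sought for Bbc3, Bax and Trp53, among the 16774 genes whose mean reached 1 TPM in any genotype. Likeness was the root mean square difference of log2 CPM after centring each gene. Closest to Bbc3 were Inha (0.127), which encodes the inhibin α subunit, Pald1 (0.127) and Wfdc1 (0.129). Closest to Bax were Ulk3 (0.0528), Lrrk1 (0.0584) and Rpl10-ps3 (0.0605), the last a near copy of another gene, so that its reads are uncertain. Closest to Trp53 were Foxp4 (0.0421), Cul7 (0.0491) and Gaa (0.0491).

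Other genes of these routes were taken from 9 lists with 87 genes. In Kpna6 ΔIBB/ΔIBB against WT testes 82 of them could be tested, and 28 were higher and 6 were lower, beside the 17.7% and 18.9% over all genes. The median log2 fold change of the listed genes was 0.22 and that of all genes was 0.01.

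Within the BCL2 family, 4 of 8 further effector and BH3-only genes were higher and 0 were lower, with a median of 0.26. They were Bik (1.16, SE 0.162, adjusted p = 2.96e-04), Bok (1.04, SE 0.142, adjusted p = 2.74e-04), Hrk (1.14, adjusted p = 0.0432) and Bnip3 (0.30, adjusted p = 0.0409), all from edgeR. Bik and Hrk encode BH3-only proteins, and BOK is a relative of BAX and BAK. Bik was at 7.42 ± 1.48 TPM in WT and 18.3 ± 2.51 TPM in Kpna6 ΔIBB/ΔIBB testes, and Bok at 6.44 ± 1.50 and 12.6 ± 0.968 TPM (SD, n = 3). Hrk was near the floor, at 0.237 ± 0.0718 and 0.315 ± 0.187 TPM. Its call was lost with DESeq2, without a filter on low counts, with the replicate block and without WT replicate 1. Of the pro-survival genes, 1 of 4 tested was higher, Bcl2l2 (0.39, edgeR, adjusted p = 0.00626), which encodes BCL-W. Among 4 other BCL2-like genes, Bcl2l14 was lower (−0.57, edgeR, adjusted p = 1.16e-05), from 250 ± 6.38 TPM in WT to 185 ± 4.42 TPM.

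Downstream of the mitochondrion, 3 of 9 genes were higher and 1 was lower. The higher ones were Vdac1 (0.73), a channel of the outer membrane, Aifm1 (0.49), which encodes apoptosis-inducing factor, and Cycs (0.36), the somatic cytochrome c, with adjusted p from 4.11e-05 to 0.0059 (edgeR). Vdac2, a related channel with a higher level (388 ± 8.96 TPM in WT against 21.9 ± 0.911 TPM for Vdac1), did not pass (−0.004, edgeR, adjusted p = 0.943). Cyct, the testis form of cytochrome c, was lower (−0.20, SE 0.0476, edgeR, adjusted p = 0.00771). Of 9 caspases tested, 4 were higher and 1 was lower, with a median of 0.40. The higher ones included Casp8 (0.77), which starts the death receptor route, Casp9 (0.30), which starts the mitochondrial route, and the executioner Casp6 (0.67), with adjusted p between 8.60e-04 and 0.0139 (edgeR). Casp1, an inflammatory caspase, was lower (−0.53, edgeR, adjusted p = 0.0186). Of 9 caspase inhibitors and substrates, 4 were higher, namely Birc3 (0.67), Xiap (0.42), Dffb (0.37) and Parp1 (0.31), with adjusted p from 2.31e-04 to 0.0353 (edgeR). Dffb was not called by DESeq2 or without a filter on low counts. XIAP inhibits caspases, DFFB is a nuclease of apoptosis and PARP1 is cleaved by caspases. The inhibitor genes Birc2 (0.01), Birc5 (−0.02), Birc6 (−0.08) and Naip2 (−0.19) did not pass.

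In the death receptor route 4 of 12 genes tested were higher and 0 were lower. Tnfrsf1a, a receptor of TNF, was at 10.9 ± 1.83 TPM in WT and 23.1 ± 2.16 TPM in Kpna6 ΔIBB/ΔIBB testes (0.92, edgeR, adjusted p = 5.69e-05). Fadd (0.34), the adaptor of FAS, Cflar (0.28), which encodes an inhibitor of CASP8, and Faim2 (2.02), an inhibitor of FAS signalling, were the others, with adjusted p from 3.20e-04 to 0.0402 (edgeR). DESeq2 did not call Fadd. Of 11 regulators of p53, 0 were higher and 3 were lower by edgeR, namely Trp73 (−0.49), Usp7 (−0.37) and Ppm1d (−0.30), with adjusted p from 7.04e-05 to 0.0429. The call of Trp73 was lost with DESeq2, without a filter on low counts, with the replicate block and without WT replicate 1. Of 16 further genes known as p53 targets, 8 were higher and 0 were lower, with a median of 0.43 and a positive fold change in 15. These included Rrm2b (0.77), Phlda3 (0.76), Sesn2 (0.68) and Ccng1 (0.56), with adjusted p from 4.67e-05 to 0.00745 (edgeR). The lists were chosen with earlier results of these data known.

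In Kpna6−/− against WT testes 0 of 81 listed genes passed by edgeR, with 9 at an unadjusted p below 0.05, beside 0.889% higher and 0.712% lower over all genes. DESeq2 called 2 of them, Sesn2 and Tnfrsf1a. Between the mutant lines 21 listed genes were higher and 6 were lower in Kpna6 ΔIBB/ΔIBB of 82 tested, beside 13.5% and 16.8% over all genes. These included Bik (0.84), Bok (0.78), Phlda3 (0.67), Casp8 (0.60) and Tnfrsf1a (0.51) among the higher and Casp1 (−0.67), Bcl2l14 (−0.61), Usp7 (−0.28), Cyct (−0.26) and Bcl2l12 (−0.17) among the lower genes, all below an adjusted p of 0.05 (edgeR).

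**Figure D4:**
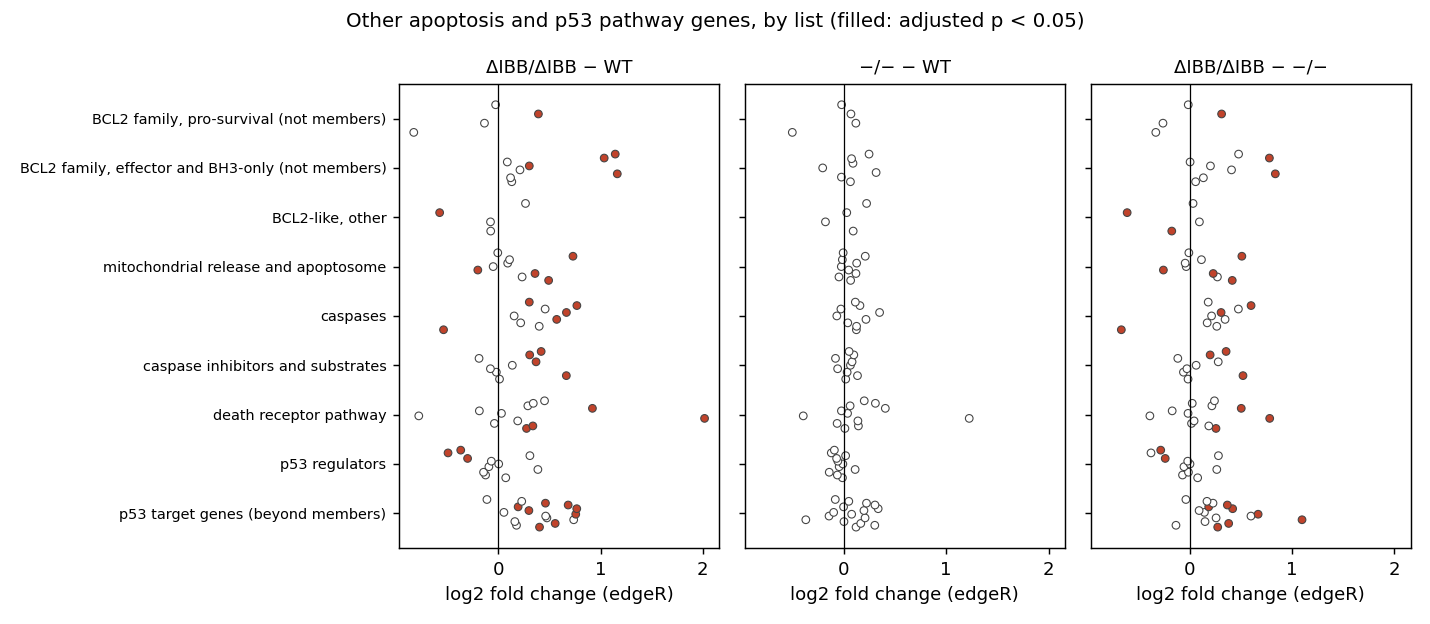
Log2 fold changes (edgeR) of the genes of the 9 lists, with 1 row of points per list and 1 panel per comparison; filled points have an adjusted p below 0.05. In the first panel 28 filled points lie right of 0 and 6 left of it, and in the second panel no point is filled (0 of 81).

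Markers of several testis cell types differed between the genotypes as well. All 12 Sertoli cell markers were higher in Kpna6 ΔIBB/ΔIBB than in WT testes, with a median of 0.59, and their summed level was 1822 to 2276 TPM against 1159 to 1280 TPM in WT and 1385 to 1477 TPM in Kpna6−/− testes. Of 9 macrophage markers 4 were higher (94.2 to 108 TPM summed against 60.7 to 86.9 TPM in WT and 71.3 to 89.5 TPM in Kpna6−/−), and of 9 spermatogonium markers 3 were higher and 1 was lower (180 to 202 TPM against 138 to 160 TPM and 143 to 159 TPM). All 8 round spermatid markers were lower, with a median of −0.53 and sums of 1121 to 1286 TPM against 1467 to 1606 TPM in WT and 1358 to 1519 TPM in Kpna6−/−. All 10 elongating spermatid markers were lower too, with a median of −0.37. Other lists moved less or in both directions. Of 8 Leydig cell markers 2 were higher (median 0.01), and of 7 pachytene markers 1 was lower (−0.08). Of 7 leptotene to zygotene markers 2 were higher and 1 was lower (0.01). Of 10 peritubular and endothelial markers 4 were higher and 1 was lower (0.28). Of 5 lymphocyte markers tested 0 passed. Of 5 epididymis and seminal vesicle markers tested 2 were higher and 1 was lower. In Kpna6−/− testes 2 of the 12 Sertoli cell markers were higher than in WT, with a median of 0.24, and 0 of the 8 round spermatid markers passed by edgeR. No marker of these lists was at 0 in all libraries. The part of cell composition in the differences of Bbc3, Bax, Trp53, Bak1 and Bcl2l11 was not tested. In whole testis, fewer cells of a type and less RNA per cell cannot be told apart, and the data do not show in which cells these genes were read, germ cells included.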

How the data were processed

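RNA of whole testes was sequenced from poly(A) libraries made with a kit that does not mark strand, and the authors assigned reads to mm10 transcripts with kallisto (version 0.45 in the submitters' processing notes). The authors deposited, for each of 96626 transcripts, an estimated count, not normalized between samples, and a TPM value, scaled to the same total in each library. The transcript release is not given in the sources used here.

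Of the transcripts, 95301 were assigned by identifier to 32035 genes of GENCODE M21 (GRCm38), 1325 were left out, and estimated counts and TPM were summed per gene. Where a symbol had 2 gene identifiers, the more abundant was used. Rounded gene counts were filtered with filterByExpr, given TMM factors and passed to glmQLFit and glmQLFTest of edgeR 4.0.16 (R 4.3.3), fitted on the 6 libraries of each pair of groups, with Benjamini-Hochberg adjustment over all genes tested and a threshold of 0.05. Intervals are 95% intervals of the fit. CPM values use TMM factors over all 9 libraries. Each library held 24859751 to 31484692 counts on genes, which leaves genes with few counts, such as Fas and Bcl2, with wide intervals. The procedure was tested on simulated data for Kpna6 ΔIBB/ΔIBB against WT. Of 100 genes changed 1.5-fold it recovered 78, and of 100 changed 2-fold it recovered 90. It also called 16 genes that had not been changed. Replicate pairs of each group were compared by a chi-square statistic per gene and all differed by more than counting noise.

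Genes named are the 9 genes, Kpna6, up to 4 genes per direction of each list with an adjusted p below 0.05 and a mean level that reached 1 TPM in either genotype, by size of change, and 3 genes alike to each of 3 of the 9 genes. Hrk and Faim2, below that level, and Ggnbp1, Crisp1, Vdac2, Birc2, Birc5, Birc6 and Naip2 were named after their values were seen. The values of 1 gene of the lists are not reported here. The 9 genes, the lists and the tests were chosen with earlier results of these data known. Alternatives were DESeq2 1.42.0, no filter on low counts, length-scaled TPM counts, library size only, a joint fit of all 9 libraries, a replicate block, limma 3.58.1 on log2(TPM + 1) and log2(TPM + 0.1), and each library left out. The fit on protein-coding transcripts only was added after the data were seen. Promoter windows are from RefSeq (GRCm38.p6).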

Additional observations from a re-analysis of the deposited data

Results flagged for a closer look

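The change from WT differed between the 2 mutant lines for 4 of the 9 genes, by the direct edgeR test of Kpna6 ΔIBB/ΔIBB against Kpna6−/− testes, in which 13.5% of all genes tested were higher and 16.8% were lower. On the log2 scale, the change in Kpna6 ΔIBB/ΔIBB minus that in Kpna6−/− testes was 0.58 for Bbc3, 0.47 for Bax, 0.28 for Trp53 and −0.32 for Bcl2l11. In Bbc3, Bax and Trp53 the Kpna6−/− libraries all lay above the WT and below the Kpna6 ΔIBB/ΔIBB libraries. The same order held in Bak1, which did not pass between the mutant lines. How many of all genes showed this order was not counted.

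Among the named genes of the pathway lists, the difference was positive in Bik (0.84), Bok (0.78), Phlda3 (0.67), Casp8 (0.60), Birc3 (0.52), Vdac1 (0.51), Tnfrsf1a (0.51), Rrm2b (0.42), Aifm1 (0.42), Ccng1 (0.38), Sesn2 (0.37), Xiap (0.36), Bcl2l2 (0.31), Casp6 (0.31), Cflar (0.26), Cycs (0.23) and Parp1 (0.20). It was negative in Casp1 (−0.67), Bcl2l14 (−0.61), Usp7 (−0.28), Cyct (−0.26), Ppm1d (−0.24) and Bcl2l12 (−0.17).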

How the results depend on the processing

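Over the 15 alternatives per comparison, 364 of the fold changes of the 9 genes kept their direction and their side of the threshold, 16 fell below it, 5 rose past it and 20 changed sign. Bbc3, Bax, Trp53 and Bak1 against WT in Kpna6 ΔIBB/ΔIBB testes, and Bbc3, Bax and Trp53 between the mutant lines, were called in all 15. In Kpna6−/− against WT testes the number of the 9 genes called was 0 with length-scaled TPM counts and with limma on log2(TPM + 1) or log2(TPM + 0.1), and ranged from 0 to 1 with a library left out. The listed genes called there were 2 with DESeq2, 3 without a filter on low counts and 1 with the replicate block (Tnfrsf1a), and 0 to 3 with a library left out, the 3 (Casp6, Sesn2 and Tnfrsf1a) without WT replicate 1. Over all genes this comparison gave 299 calls, against 477 with DESeq2, 624 without a filter, 71 with length-scaled TPM counts, 32 with limma on log2(TPM + 1), 33 on log2(TPM + 0.1) and 92 (without Kpna6−/− replicate 1) to 518 (without WT replicate 1). Listed genes called between the mutant lines fell from 27 to 17 with length-scaled TPM counts. The cause was not tested.

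Scaling by library size only moved the median of all genes to 0.11 in Kpna6 ΔIBB/ΔIBB against WT, and the share of calls that were higher from 48.4% to 70.0% (70.8% with limma on log2(TPM + 1)). Between the mutant lines that share went from 44.5% to 71.0% (74.0%). With library size only, Bcl2l1 turned to 0.066 against WT and 0.047 between the lines, and with limma to 0.101 and 0.109 (log2(TPM + 1)) or 0.102 and 0.110 (log2(TPM + 0.1)). Bcl2l1 in Kpna6−/− against WT turned to −0.007 with limma (both pseudocounts) and ranged from −0.018 to 0.034 with a library left out. Bcl2 in that comparison turned to 0.018 with length-scaled TPM counts and to 0.004 and 0.00 with limma, and ranged from −0.277 to 0.287 with a library left out. With a library left out, Bcl2 also ranged from −0.002 (without WT replicate 3) to 0.481 in Kpna6 ΔIBB/ΔIBB against WT and from −0.047 (without Kpna6−/− replicate 3) to 0.43 between the lines. Bcl2l11 in Kpna6−/− testes ranged from −0.007 (without Kpna6−/− replicate 2) to 0.16 with a library left out. With protein-coding transcripts only, Bcl2l11 turned to 0.263 in Kpna6 ΔIBB/ΔIBB against WT and to 0.151 between the lines. No value that changed sign passed the test.

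Samples with the same replicate number did not deviate together (correlations from −0.06 to 0.08), and nothing says that the numbers pair the samples. With the replicate block, 5, 1 and 5 of the 9 genes and 6793, 229 and 6032 of all genes were called in the 3 comparisons, the added gene being Bak1 between the lines (adjusted p = 0.0403). Every value of Fas and Bcl2 is limited by depth, at 11 to 26 and 26 to 66 counts.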
